A study of Mus musculus with 20 samples.

Results

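miR-132 and miR-212 are a pair of microRNAs (miRNAs) cut from neighbouring hairpins, and each hairpin gives a mature strand from its 5′ arm (5p) and one from its 3′ arm (3p). The 4 mature mouse strands, mmu-miR-132-3p, mmu-miR-132-5p, mmu-miR-212-3p and mmu-miR-212-5p (mmu- is left out below), were chosen by name, and all 4 were among the 1481 small-RNA features measured. They were followed in small-RNA sequencing of primary mouse cortical neurons in which oxygen-glucose deprivation (OGD), a culture model of the loss of blood supply in stroke, was compared with normoxia in wild-type cells and in cells lacking ciRS-7. ciRS-7, also called Cdr1as, is a circular RNA of neurons with many binding sites for miR-7. Cortices were taken from embryos at day 15 and the neurons were cultured for 7 days before treatment. The normoxic groups, wild type and ciRS-7 knockout, were kept for 12 h in 5% CO2 at 37 °C with 25 mM glucose and 0.2 mM pyruvate. The OGD groups of the same genotypes were kept for 12 h in 1% O2 and 5% CO2 at 37 °C with neither added. Each of the 4 groups had 5 libraries, described as biological replicates, and the p-values measure the spread between these libraries. The strain label C57BL/6N-Cdr1asem1Nikr was given to every library, wild type included, and ciRS-7 itself is not among the features used here, so the genotype labels were not checked. The model holds a single cell preparation of embryonic age without circulating blood, and the labels do not say whether a library pooled embryos.

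miR-132 and miR-212 are known as miRNAs whose transcription neurons start in response to activity, through the transcription factor CREB and neurotrophins such as BDNF. The 3p strands are regarded as the main regulatory strands, and miR-132-3p is known for promoting the growth of dendrites and spines. A miRNA finds its targets mainly by the seed, the short stretch near its 5′ end, so strands with the same seed are expected to share targets, and the strand of a hairpin that is not kept is usually degraded.

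The hairpins are shown first, because the results turn on their arms. Both lie on the plus strand of chromosome 11 in GRCm38.p6, the reference behind the RefSeq sequences printed here. Mir212 spans chr11:75173388-75173478 and Mir132 spans chr11:75173682-75173747, with 203 bases between them. In GENCODE M21 both lie within the non-coding gene 1700016P03Rik and in none of its exons, so they are intronic. Capitals mark the mature 5p and 3p strands within each hairpin.
Mir212: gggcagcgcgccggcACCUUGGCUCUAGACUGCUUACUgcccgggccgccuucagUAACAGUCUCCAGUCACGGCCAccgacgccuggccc
Mir132: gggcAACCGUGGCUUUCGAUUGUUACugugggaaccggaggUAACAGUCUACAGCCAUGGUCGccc

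The mature strands follow, with the seed (bases 2 to 8 from the 5′ end) in capitals, to show which strands share one.
miR-132-3p: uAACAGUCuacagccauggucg
miR-212-3p: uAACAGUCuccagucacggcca
miR-132-5p: aACCGUGGcuuucgauuguuac
miR-212-5p: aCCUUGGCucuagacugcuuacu
The 3p strands have the same seed, AACAGUC, and no other feature matched to RefSeq had it. They are identical at 17 of 22 positions, including the first 9 bases, and differ only after the seed. The 5p strands have different seeds, each found in 1 feature, and are identical at 9 of 22 positions. The 3p strands begin with U and the 5p strands with A. The shared stretch of the 3p strands is shorter than a read of a whole mature strand, but how reads matching both were assigned is not given in the sources used here.

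Values are counts per 1e6 reads (CPM), worked out from whole read numbers recovered from the deposited tables. Libraries held 1160582 to 12477032 reads, and the OGD libraries were the shallower (1160582 to 4374002 in wild type and 1811589 to 3119212 in the knockout, against 2492065 to 9117862 and 5884616 to 12477032 in normoxia). The 4 strands were counted far above the floor of 3 reads in every library: miR-132-3p had 1524 to 9271 reads, miR-132-5p 350 to 5104, miR-212-5p 140 to 1828 and miR-212-3p 86 to 361. miR-210-3p, which cells are known to induce in low oxygen, checked the OGD labels: it rose from 18.3 ± 6.28 to 108 ± 34.7 CPM in wild type and from 26 ± 12.6 to 110 ± 46.3 CPM in the knockout (mean ± SD, n = 5 each). The 4 neuronal marker miRNAs summed to 287717 to 386268 CPM over the 20 libraries, the 5 of blood cells and microglia to 0.867 to 5.59 CPM, with miR-223-3p at 0 in 12 libraries, the 2 of the oligodendrocyte lineage to 5.29 to 14.0 CPM, and the 3 vascular ones to 288 to 431 CPM. Single members set some of these sums. miR-9-5p alone held 229668 to 307756 CPM of the neuronal one, against 2739 to 6484 CPM for miR-124-3p. miR-126a-3p held 251 to 378 CPM of the vascular one. In bulk RNA, fewer cells of a type and less RNA per cell cannot be told apart.

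In normoxic wild-type neurons the 4 strands stood in the order miR-132-3p, miR-132-5p, miR-212-5p and miR-212-3p. By mean CPM they ranked 82nd, 108th, 167th and 286th of the 1481 features, and the groups of values of neighbouring strands did not overlap in that order. The hairpins therefore differed in their more abundant strand, which was 3p for miR-132 and 5p for miR-212. Knockout normoxic ranks were 85, 115, 167 and 288. Levels of different strands also carry the efficiency with which each sequence is ligated and amplified, which was not measured, whereas a change in 1 strand or in a ratio between groups compares the same sequences.

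After OGD, the 3p strands stood higher on average and the 5p strands lower than in normoxia, in both genotypes, with the authors' library factors. The direction of miR-132-3p turned when each library was centred on its median (-0.19 in wild type and -0.14 in the knockout, log2). In wild type all 4 passed the test, 2 higher and 2 lower, where 23.1% of the 1478 features tested were called, 18.7% higher and 4.4% lower. In the knockout 3 of 4 passed, miR-212-3p higher and both 5p strands lower, where 24.5% of 1479 features were called, 18.8% higher and 5.75% lower. The test was limma on log2(CPM + 0.5), 5 against 5 libraries, two-sided, with p-values adjusted by Benjamini-Hochberg over the whole table and a threshold of 0.05. The fold changes below are on that log2 scale. Features with a mean of at least 3 on this scale, as the 4 strands have, were called more often. Fitted alone, 223 of 425 such features passed in wild type, 159 higher and 64 lower. In the knockout 260 of 420 passed, 179 higher and 81 lower.

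miR-212-3p, which shares the miR-132-3p seed, had the largest log2 change of the 4 with the authors' library factors, an order that other scalings described below did not keep. In wild type its normoxic libraries held 22.7, 24.2, 42.0, 46.5 and 32.5 CPM (replicates 1 to 5), and the OGD libraries 52.6, 69.1, 94.3, 112 and 72.8 CPM. In the knockout the normoxic libraries held 28.6, 31.0, 38.9, 33.7 and 32.4 CPM and the OGD libraries 52.7, 64.4, 98.1, 58.7 and 74.1 CPM. Every OGD library stood above every normoxic library of its genotype. Groups failed to overlap, in either direction, for 35.3% of the 425 features with a mean log2 value of at least 3 in wild type and for 44.8% of 420 in the knockout. The mean went from 33.6 ± 10.5 to 80.1 ± 23.2 CPM in wild type, a log2 change of 1.25 (SE 0.22, adjusted p = 3.2e-04 in limma). Its knockout mean went from 32.9 ± 3.84 to 69.6 ± 17.8 CPM, a log2 change of 1.04 (SE 0.15, adjusted p = 7.3e-05 in limma). Among the features with a mean log2 value of at least 3, 47 of 425 in wild type and 49 of 420 in the knockout had a higher fold change.

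miR-132-3p, the most abundant strand, changed by less. Its wild-type normoxic libraries held 807, 847, 991, 914 and 927 CPM, and the OGD libraries 989, 1012, 1295, 1638 and 996 CPM. In the knockout the normoxic libraries held 771, 874, 1079, 813 and 777 CPM and the OGD libraries 1077, 1027, 1657, 907 and 1012 CPM. In wild type 4 of 5 OGD libraries lay above all normoxic ones, with replicates 3 and 4 the highest. In the knockout 1 of 5 did, replicate 3, and the other 4 lay within the normoxic range.

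In wild type the mean miR-132-3p level went from 897 ± 71.9 to 1186 ± 283 CPM, a log2 change of 0.38 (SE 0.13, adjusted p = 0.0462 in limma). In the knockout it went from 863 ± 128 to 1136 ± 298 CPM, with nearly the same log2 difference, 0.37 (SE 0.14), which missed the threshold at an adjusted p of 0.0595 in limma. With a block on replicate number the knockout difference passed (adjusted p = 8.1e-04 in limma), although no label says that these numbers pair libraries. With each library centred on its median it turned to -0.14. The wild-type call was close to the threshold. With each library left out in turn it held in 3 of 10 fits, those without normoxic replicate 5 and OGD replicates 1 and 2, and the log2 difference ran from 0.25 without OGD replicate 4 to 0.43 without OGD replicate 1. The knockout difference was 0.23 without OGD replicate 3, its highest library, and passed in 1 of 10 such fits, without normoxic replicate 3 (adjusted p = 0.0323 in limma).

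The strands with the AACAGUC seed together held 931 ± 80.5 CPM in wild-type normoxia and 1266 ± 305 CPM after OGD, and 896 ± 131 and 1206 ± 313 CPM in the knockout (mean ± SD, n = 5 each). miR-212-3p made up 3.56 ± 0.895% of them in wild-type normoxia and 6.29 ± 0.722% after OGD. In the knockout its share was 3.69 ± 0.280% and 5.81 ± 0.784%. By read numbers the seed was thus carried mostly by miR-132-3p in all 4 groups.

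The 5p strands, the strands opposite the AACAGUC seed, lay lower after OGD. For miR-132-5p the wild-type normoxic libraries held 287, 474, 594, 590.2 and 548 CPM, and the OGD libraries 282, 288, 297, 464 and 325 CPM. The groups overlapped only through normoxic replicate 1, which was as low as the OGD libraries, and OGD replicate 4 was higher than the other OGD libraries. In the knockout the normoxic libraries held 424, 434, 489, 452 and 456 CPM and the OGD libraries 215, 244, 309, 231 and 238 CPM, with no overlap.

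Mean miR-132-5p fell from 499 ± 128 to 331 ± 75.9 CPM in wild type, a log2 change of -0.57 (SE 0.18, adjusted p = 0.0308 in limma). Its knockout mean fell from 451 ± 24.8 to 247 ± 36.2 CPM, a log2 change of -0.87 (SE 0.10, adjusted p = 4.0e-06 in limma), and 10 of 420 features with a mean log2 value of at least 3 had a lower fold change. The wild-type call held in 3 of 10 fits that left out a library, those without normoxic replicates 1 and 5 and OGD replicate 4. The log2 change was -0.76 without normoxic replicate 1 and -0.49 without normoxic replicate 3. The knockout call held in all 10.

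For miR-212-5p, the more abundant strand of its hairpin, the wild-type normoxic libraries held 151, 170.4, 202, 208 and 149 CPM and the OGD libraries 115, 99.2, 119, 165 and 85.8 CPM. The knockout libraries held 152, 188, 192, 152 and 167 CPM in normoxia and 114, 140.0, 134, 106 and 103 CPM after OGD. In wild type only OGD replicate 4 reached the normoxic range, and in the knockout the groups did not overlap. The mean fell from 176 ± 27.9 to 117 ± 29.9 CPM in wild type (log2 change -0.61, SE 0.16, adjusted p = 0.00996 in limma) and from 170.1 ± 19.0 to 119 ± 16.8 CPM in the knockout (log2 change -0.51, SE 0.11, adjusted p = 0.00274 in limma). Without OGD replicate 5 the wild-type value just missed the threshold, with an adjusted p of 0.0512 in limma. The call held in the other 9 wild-type and all 10 knockout fits that left out a library.

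**Figure D1:**
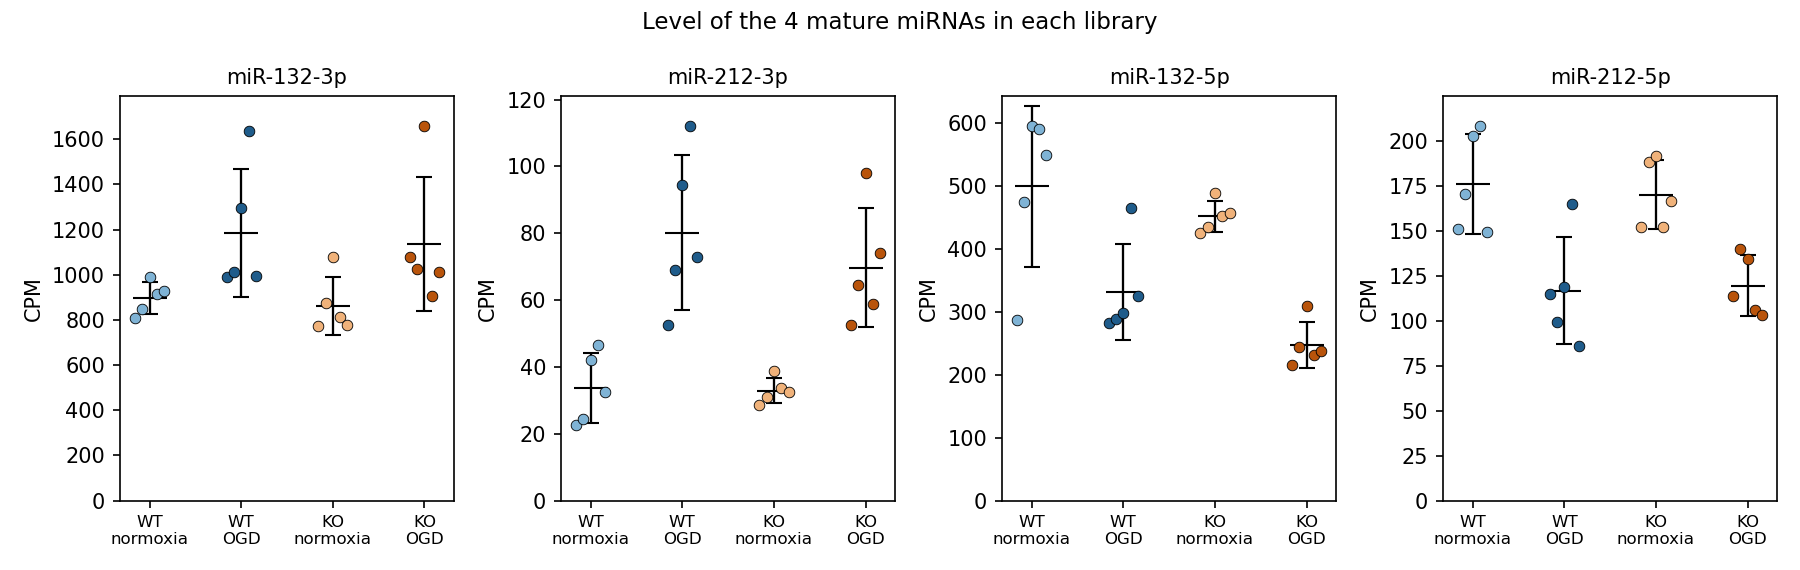
Level of each strand in CPM (vertical axes) in the 20 libraries (points) by genotype and condition, with group means and SD. miR-212-3p has no overlap between normoxia and OGD in either genotype, and wild-type OGD replicate 4 (464 CPM) stands above the other wild-type OGD libraries for miR-132-5p.

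How large these changes were depended on the scaling between libraries. With the authors' library factors the median log2 fold change of features with a mean log2 value of at least 3 was 0.22 in wild type and 0.20 in the knockout. It was -0.05 and -0.09 with median-of-ratios size factors, -0.11 and -0.09 after quantile normalization, and -0.34 and -0.31 with each library centred on its median. Calls over all features moved with it, from 276 higher and 65 lower in wild type to 108 and 265 with centring, and from 278 and 85 to 112 and 324 in the knockout.

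miR-212-3p stayed higher and both 5p strands lower after OGD under all 4 scalings in both genotypes, although miR-212-3p in wild type missed the threshold after quantile normalization (0.58, adjusted p = 0.0959 in limma). miR-132-3p did not keep its sign: it was 0.10 with median-of-ratios factors and -0.19 with centring in wild type, neither of which passed the test, and -0.14 with centring in the knockout. Relative to the median of the features with the authors' factors, the wild-type log2 changes were 0.15 for miR-132-3p, 1.03 for miR-212-3p, -0.79 for miR-132-5p and -0.84 for miR-212-5p. In the knockout they were 0.18, 0.85, -1.07 and -0.71 in the same order. The largest change in the knockout was then that of miR-132-5p, as it was with each of the other 3 scalings, and in wild type miR-212-5p changed by more than miR-212-3p with quantile normalization (-1.05) and centring (-1.17). The signed change of miR-132-3p was not near either end: 153 of 425 features had a higher change in wild type and 144 of 420 in the knockout.

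**Figure D2:**
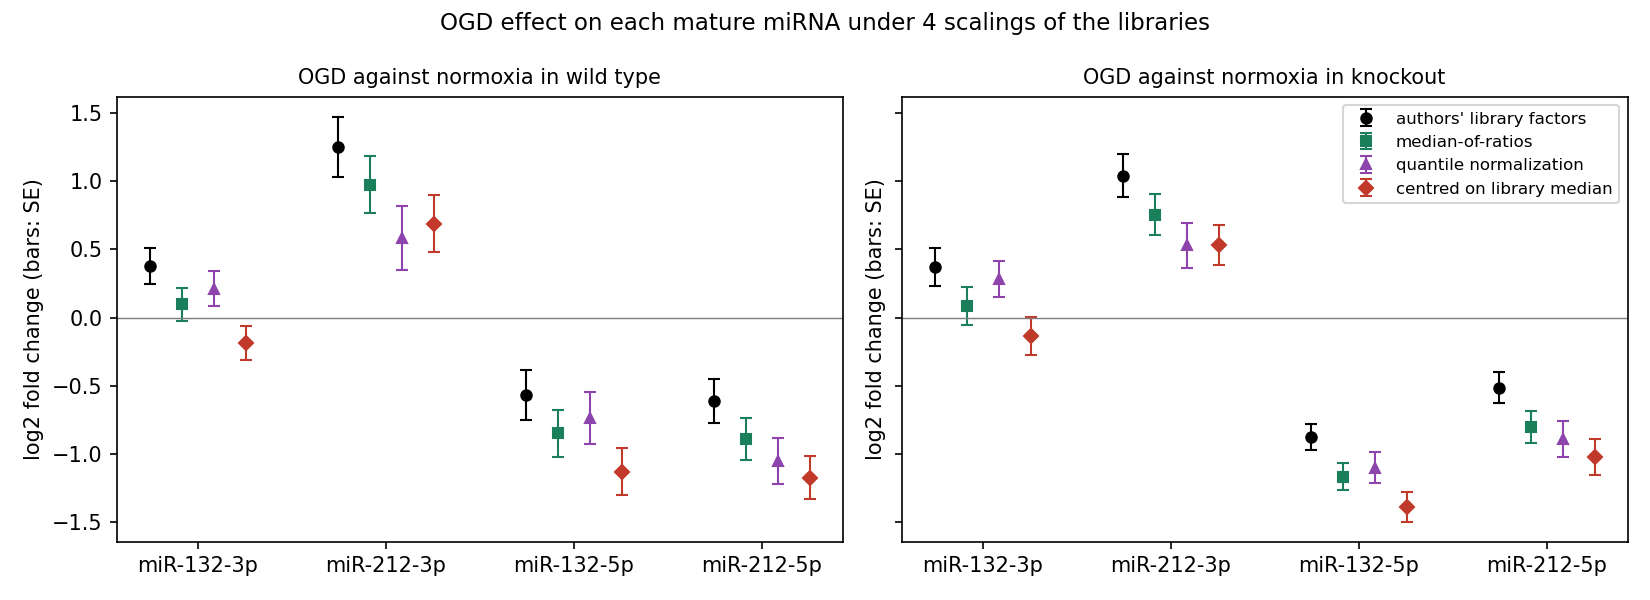
Log2 fold change after OGD (vertical axes, points with bars of 1 SE) of the 4 strands (horizontal axes) under 4 ways of scaling the libraries, one panel for each genotype. miR-132-3p crosses 0 with centring, while miR-212-3p stays above 0 and both 5p strands stay below it.

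Ratios between strands of the same library are not changed by a scaling that gives each library 1 factor. Quantile normalization, which replaces values by rank, does change them. The ratio of miR-132-3p to miR-132-5p was 2.81, 1.79, 1.67, 1.55 and 1.69 in the wild-type normoxic libraries and 3.50, 3.51, 4.35, 3.53 and 3.06 in the OGD libraries. In the knockout it was 1.82, 2.01, 2.21, 1.80 and 1.70 in normoxia and 5.01, 4.20, 5.35, 3.92 and 4.25 after OGD. The groups did not overlap in either genotype, and wild-type normoxic replicate 1 stood apart from the other normoxic libraries.

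The miR-132 arm ratio rose 1.92-fold in wild type (log2 difference 0.94, SE 0.17) and 2.38-fold in the knockout (log2 difference 1.25, SE 0.11). The exact two-sided permutation test gave p = 0.0079 for each, the smallest that 5 against 5 libraries allow, and 0.0159 after Benjamini-Hochberg adjustment over the 16 ratio tests. Over all pairs of features with a mean log2 value of at least 3, the ratio failed to overlap between normoxia and OGD in 39.3% in wild type and in 47% in the knockout. The dominance of the 3p strand of miR-132 was thus greater after OGD than before it.

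For miR-212 the ratio of 3p to 5p was 0.153, 0.145, 0.209, 0.225 and 0.220 in wild-type normoxia and 0.460, 0.698, 0.794, 0.680 and 0.849 after OGD. For the knockout the values were 0.191, 0.167, 0.205, 0.224 and 0.197 in normoxia and 0.465, 0.462, 0.731, 0.556 and 0.720 after OGD. The 5p strand stayed the more abundant in all 20 libraries, and every OGD library had a higher ratio than every normoxic one of its genotype. The rise was 3.64-fold in wild type (log2 difference 1.86, SE 0.21) and 2.94-fold in the knockout (log2 difference 1.55, SE 0.16), each with an exact permutation p of 0.0079, adjusted 0.0159.

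The strands that share the seed also shifted against each other. The ratio of miR-132-3p to miR-212-3p was 34.8, 34.2, 23.3, 19.5 and 28.1 in wild-type normoxia and 18.6, 14.5, 13.7, 14.6 and 13.6 after OGD, and in the knockout 26.5, 27.8, 27.4, 23.7 and 23.7 against 20.3, 15.8, 16.8, 15.3 and 13.6. All OGD values lay below the normoxic values of their genotype. The log2 ratio fell by 0.87 in wild type (SE 0.18) and by 0.67 in the knockout (SE 0.11), each with an exact permutation p of 0.0079, adjusted 0.0159. After quantile normalization, added after seeing the data, the changes in this log2 ratio were -0.37 and -0.25, with no test.

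The ratio of miR-132-5p to miR-212-5p differed by less than its spread in wild type, at 1.90, 2.78, 2.93, 2.83 and 3.66 in normoxia and 2.45, 2.89, 2.49, 2.81 and 3.77 after OGD (log2 difference 0.04, exact permutation p = 0.841). In the knockout it was 2.79, 2.30, 2.55, 2.96 and 2.73 in normoxia and 1.88, 1.74, 2.29, 2.18 and 2.30 after OGD. The highest OGD and the lowest normoxic value were both 2.30 after rounding, with no overlap before it. The knockout log2 ratio fell by 0.36 (SE 0.10, exact permutation p = 0.0079, adjusted 0.0159), and without normoxic replicate 4 the adjusted p was 0.0564. After quantile normalization the changes were 0.31 in wild type and -0.21 in the knockout, with no test, whereas both 3p to 5p ratios changed by 0.95 to 1.63 there, against 0.94 to 1.86 in the libraries as they were.

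**Figure D3:**
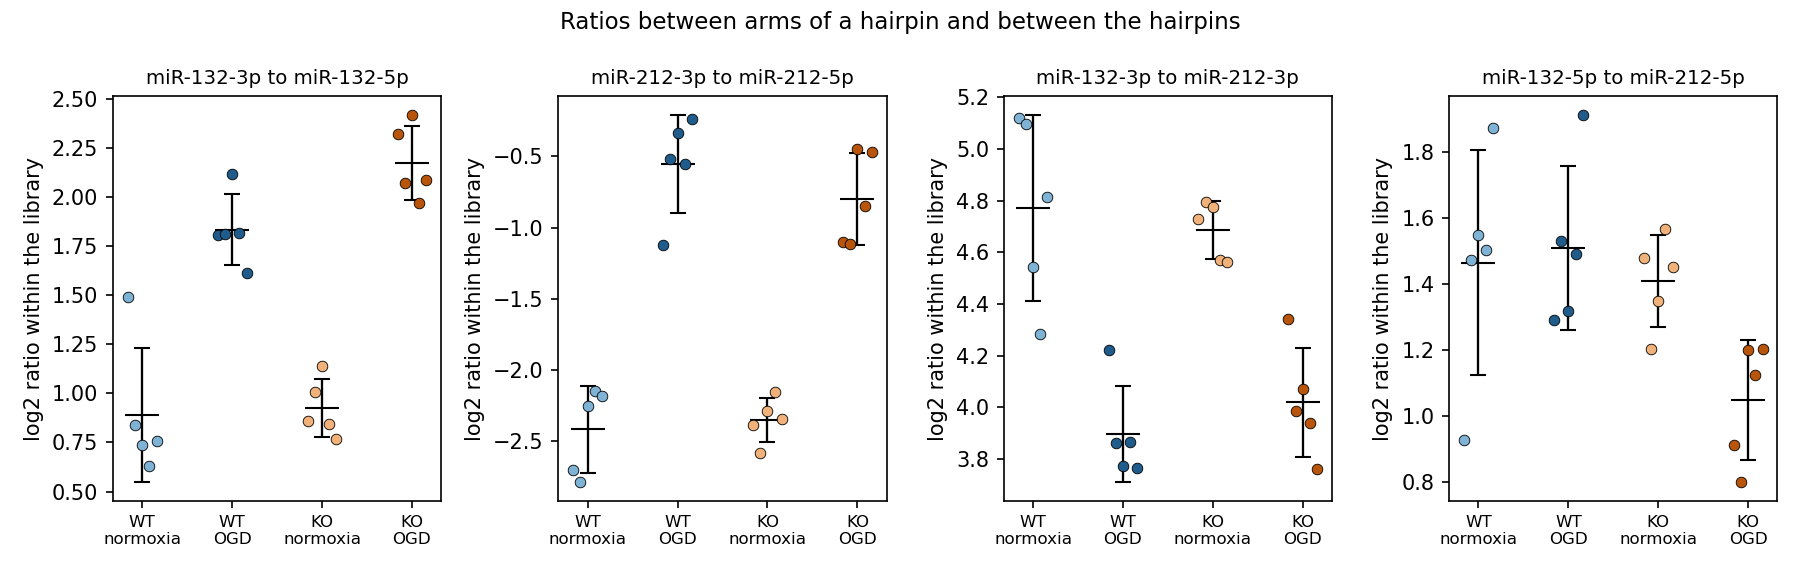
Ratios between strands within each library (points, log2 scale on the vertical axes) by genotype and condition, with group means and SD. Both 3p to 5p ratios are higher in every OGD library than in every normoxic library of the same genotype, and the miR-132-3p to miR-212-3p ratio is lower.

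A changed arm ratio was common among hairpins. With both arms at a mean log2 value of at least 3, the ratio of 3p to 5p passed the limma test after OGD in 61.0% of 82 hairpins in wild type and in 66.7% of 81 in the knockout. In wild type 21 moved toward 3p and 29 toward 5p, with a median log2 change of -0.08 and quartiles of -0.59 and 0.42. In the knockout 22 moved toward 3p and 32 toward 5p, with a median of -0.17 and quartiles of -0.56 and 0.37.

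Mir212 had the 2nd highest change toward 3p in wild type and the 5th in the knockout, and Mir132 the 9th and the 6th. In the same limma fits over hairpins, Mir132 changed by 0.94 in wild type (SE 0.17, adjusted p = 2.2e-04 in limma) and by 1.25 in the knockout (SE 0.12, adjusted p = 1.1e-07 in limma). Mir212 changed by 1.86 (SE 0.19, adjusted p = 8.4e-07 in limma) and 1.55 (SE 0.15, adjusted p = 1.1e-07 in limma). The hairpins thus moved the same way although 3p was the major strand of Mir132 and the minor strand of Mir212. With the authors' factors, 3p was up and 5p down by fitted sign in 18 of 82 hairpins in wild type and 19 of 81 in the knockout. Mir132 and Mir212 were among them in both. Such signs depend on the scaling: with centring miR-132-3p was at -0.19 in wild type and -0.14 in the knockout.

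**Figure D4:**
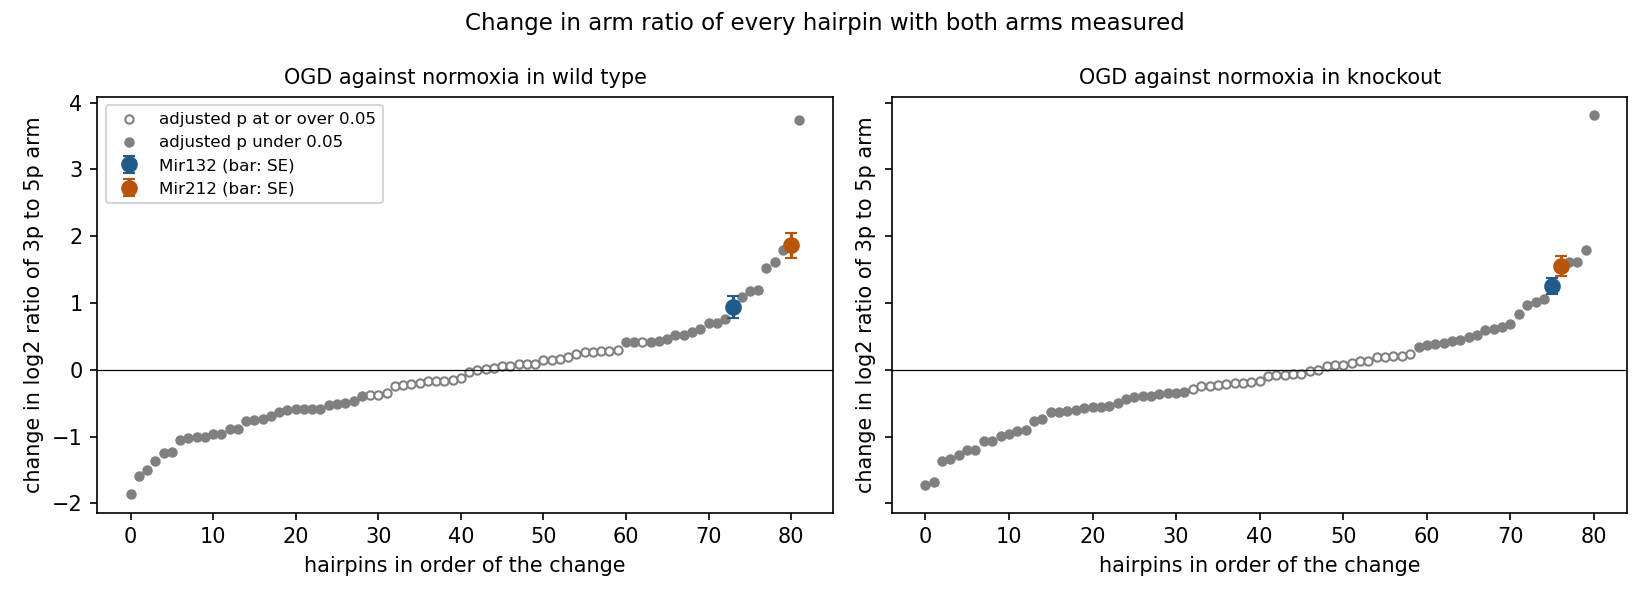
Change after OGD in the log2 ratio of 3p to 5p (vertical axes) of each hairpin with both strands measured, in order of the change (horizontal axes), one panel for each genotype; filled points passed the limma test, and Mir132 and Mir212 are coloured with bars of 1 SE. Both lie near the upper end in both genotypes, at 0.94 and 1.86 in wild type and 1.25 and 1.55 in the knockout.

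Between the genotypes in normoxia, none of the 4 strands differed past the threshold by limma, where 0.0% of 1481 features were called and 47 had an unadjusted p under 0.05. The knockout minus wild-type log2 differences were -0.06 for miR-132-3p (95% interval -0.28 to 0.15), -0.10 for miR-132-5p (-0.45 to 0.26), 0.02 for miR-212-3p (-0.38 to 0.42) and -0.04 for miR-212-5p (-0.30 to 0.21). The libraries of the genotypes overlapped for each strand, and groups failed to overlap for 0.496% of 403 features with a mean log2 value of at least 3. Single wild-type libraries moved the miR-132-5p difference, from -0.29 without normoxic replicate 1 to -0.0239 without normoxic replicate 3, and none of these fits gave a call. The 4 normoxic ratios differed by -0.08 to 0.06 on the log2 scale, with exact permutation p-values of 0.579 to 0.841.

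After OGD the genotypes again gave no call by limma over the features (0.0% of 1481 called, 108 with an unadjusted p under 0.05). The largest difference of the 4 was that of miR-132-5p, with a knockout minus wild-type log2 value of -0.41 (95% interval -0.67 to -0.14, adjusted p = 0.410 in limma), and 4 of 5 knockout libraries lay below all wild-type ones. Groups failed to overlap for 0.887% of 451 features with a mean log2 value of at least 3, and none of the 4 strands was among them. The intervals of the others were -0.35 to 0.21 for miR-132-3p, -0.55 to 0.18 for miR-212-3p and -0.25 to 0.36 for miR-212-5p.

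Among the ratios, that of miR-132-5p to miR-212-5p was lower in all 5 knockout OGD libraries than in all 5 wild-type ones, by -0.46 on the log2 scale (SE 0.14, exact permutation p = 0.0079, adjusted 0.0159). Over all 101475 pairs of features with a mean log2 value of at least 3, which share features and so are not independent, the ratio failed to overlap between these groups in 1.56%. The log2 mean of miR-132-5p to miR-212-5p was 1.05 ± 0.18 in the knockout and 1.51 ± 0.25 in wild type after OGD, against 1.41 ± 0.14 and 1.47 ± 0.34 in normoxia (SD, n = 5 each). The ratio of miR-132-3p to miR-132-5p was 0.34 higher on the log2 scale in the knockout after OGD (SE 0.12, exact permutation p = 0.0317), which did not pass after adjustment (0.0564) but did without wild-type OGD replicate 3 (0.0282). In the limma fit of arm ratios over 86 hairpins none was called between the genotypes after OGD. That fit holds only ratios of 3p to 5p within a hairpin and so leaves out miR-132-5p to miR-212-5p.

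Whether the OGD effect differed between the genotypes was tested in 1 limma fit over the 20 libraries, in which 0.0% of 1481 features were called and 74 had an unadjusted p under 0.05. The knockout effect minus the wild-type effect was -0.0016 for miR-132-3p (95% interval -0.42 to 0.41), -0.31 for miR-132-5p (-0.76 to 0.15), -0.21 for miR-212-3p (-0.80 to 0.38) and 0.10 for miR-212-5p (-0.32 to 0.52). For the arm ratios the same difference was 0.30 for Mir132 (-0.12 to 0.73, adjusted p = 0.960 in limma) and -0.31 for Mir212 (-0.82 to 0.20, adjusted p = 0.960 in limma). Without wild-type normoxic replicate 1 the difference for miR-132-5p was -0.12, and the wild-type change in the log2 miR-132 arm ratio was 1.09, nearer the 1.25 of the knockout. The single-strand differences for miR-212-3p and miR-212-5p also moved by over 1.5 times with single libraries left out, with no call, and their ranges are given with the other alternatives. The passing of miR-132-3p in wild type alone does not show that the genotypes differ, and its interval leaves a difference in either direction undecided.

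Ordered by mean level, miR-212-3p stood highest in wild-type OGD, then in knockout OGD, wild-type normoxia and knockout normoxia. Both 5p strands were highest in wild-type normoxia and next highest in knockout normoxia. miR-132-5p was lowest in knockout OGD, and miR-212-5p had nearly the same mean in both OGD groups. The neighbours that differed past the limma threshold were those across the step between the conditions. Knockout OGD against wild-type normoxia gave 1.06 for miR-212-3p (adjusted p = 0.00156 in limma), in a table where 22.2% of 1470 features were called. For miR-132-5p the step from knockout normoxia to wild-type OGD was -0.47 (adjusted p = 0.00612 in limma), where 26.2% of 1480 features were called. For miR-132-3p the order was wild-type OGD, knockout OGD, wild-type normoxia and knockout normoxia. No neighbours in that order differed past the threshold: knockout OGD against wild-type normoxia gave 0.31 (adjusted p = 0.118 in limma).

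Across the 20 libraries the feature most like miR-132-3p was miR-129-2-3p (Pearson r of log2 values 0.852), followed by miR-129-1-3p (0.840), miR-212-3p itself (0.836) and miR-129b-5p (0.808), among 422 other features with a mean log2 value of at least 3. These values are a description: the libraries share the OGD step, their depth and the scaling. Deviations from the group means, which leave out the OGD step, put miR-129-1-3p first (0.853), then miR-129-2-3p (0.795), miR-212-3p (0.761), miR-212-5p (0.706) and miR-129b-5p (0.704). miR-129-1-3p and miR-129-2-3p have near-identical sequences, and how reads were divided between them is not stated.

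The arms of miR-132 differed in this respect. Over all libraries the r of miR-132-3p with miR-132-5p was -0.178, while over deviations from the group means it was 0.652. miR-132-5p and miR-212-5p had an r of 0.796 over all libraries, and miR-132-5p with miR-212-3p went from -0.424 over all libraries to 0.805 over deviations. So within a group, libraries high in one strand tended to be high in the others. Wild-type OGD replicate 4 was the highest of its group for all 4.

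The 3 miR-129 strands picked for this likeness were chosen over libraries that include the OGD step, so their OGD values are a description. In wild type the log2 changes were 0.85 for miR-129-2-3p (SE 0.17), 0.90 for miR-129-1-3p (SE 0.15) and 1.04 for miR-129b-5p (SE 0.16). miR-129-5p, which is in the list of activity-linked miRNAs below and was not picked for likeness to miR-132-3p, fell by 0.95 (SE 0.17, adjusted p = 4.4e-04 in limma). In the knockout the changes were 0.84, 0.79, 0.89 and -1.01 in the same order. The changes of the 3 were smaller with centring, at 0.29, 0.34 and 0.48 in wild type, while miR-129-5p passed lower under all 4 scalings in both genotypes.

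Other miRNAs known from work on neuronal activity and synapses were set beside the 4 strands as a list of 11 chosen by role. After OGD in wild type 4 of the 11 passed higher and 2 lower, where 18.7% of all features were called higher and 4.4% lower. The median log2 fold change was 0.07 for the list and 0.32 over all 1478 features. It was 0.22 over the 425 features with a mean log2 value of at least 3, a level that the whole list exceeded. In a fit of those 425 alone, 159 were called higher and 64 lower. In the knockout 4 passed higher and 1 lower, where 18.8% of all features were called higher and 5.75% lower. The medians were 0.32 for the list, 0.24 over 1479 features and 0.20 over the 420 with a mean log2 value of at least 3. In a fit of those 420 alone, 179 were called higher and 81 lower. The balance of directions in the list turned with the scaling. Over all features it turned with quantile normalization and centring but not with median-of-ratios factors. In wild type 3 of the list passed higher and 4 lower with median-of-ratios factors (189 and 126 over all features), the same with quantile normalization (141 and 191), and 1 higher and 6 lower with centring (108 and 265). In the knockout the list counts were 3 and 5 (175 and 160 over all features), 3 and 4 (141 and 186), and 2 and 5 (112 and 324) in the same order.

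miR-138-5p, known to limit the size of dendritic spines, rose from 233 ± 15.7 to 454 ± 66.4 CPM in wild type and from 241 ± 17.2 to 441 ± 39.3 CPM in the knockout (log2 fold changes 0.95 and 0.87). miR-92a-3p rose by 0.79 and 0.91 and miR-124-3p, the most neuron-restricted of the list and also among the neuronal markers above, by 0.74 and 0.56. The miR-138-5p calls held under all 4 scalings in both genotypes. With centring, miR-124-3p was at 0.18 in wild type and 0.05 (SE 0.11) in the knockout, and neither passed. In wild type miR-92a-3p did not pass with centring (0.23) or quantile normalization (0.19). miR-181a-5p rose by 0.49 and 0.46 with the authors' factors, but its sign turned with centring (-0.08 and -0.05). miR-129-5p fell from 11648 ± 2331 to 6156 ± 1982 CPM in wild type and from 10652 ± 1062 to 5344 ± 1033 CPM in the knockout. miR-191-5p fell by 0.34 in wild type (adjusted p = 0.0346 in limma), and its knockout value was -0.23 (adjusted p = 0.0552 in limma). With the other 3 scalings its knockout value passed, at -0.52 with median-of-ratios factors, -0.35 with quantile normalization and -0.74 with centring.

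The other 5 members of the list did not pass in either genotype with the authors' factors. miR-134-5p, which is known to restrain spine growth and, like miR-132, is linked to activity, was at 984 ± 129 CPM in wild-type normoxia and 988 ± 198 after OGD (log2 fold change -0.01), and at -0.06 in the knockout. miR-329-3p, from the same miRNA cluster as miR-134-5p, was at -0.10 and -0.03, miR-384-5p at 0.07 and 0.34, miR-188-5p at 0.35 and 0.32, and miR-485-5p at -0.33 and -0.40. In the knockout, miR-384-5p and miR-485-5p just missed the threshold (adjusted p = 0.0506 and 0.0518 in limma). None of the 11 was called between the genotypes in either condition. With the other scalings several passed lower. miR-485-5p and miR-329-3p did so under all 3 in both genotypes, with miR-485-5p at -0.96 to -0.61 and miR-329-3p at -0.66 to -0.32. miR-134-5p passed with centring in both genotypes (-0.57 in each) and with median-of-ratios factors in the knockout (-0.35). miR-384-5p passed with centring in wild type (-0.49), and miR-188-5p passed under none, with a sign that turned with centring and quantile normalization.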

How the data were processed

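Small-RNA libraries (TRIzol RNA, NEBNext kit, gel size selection, per the labels' protocols) gave 6 deposited tables, 1 for each pair of groups. mm10 is listed in the submitters' processing notes. The aligner, counter and miRNA annotation are not given in the sources used here. The deposited values are scores: although the tables are named as log CPM, their maxima, 35.8 to 37.3, exceed the 19.9 that log2 CPM can reach. They fitted (reads × library factor) raised to a power of 0.106 to 0.118, with the extremes of each group of 5 limited at the 0.16 and 0.84 quantiles, a form found from the values. Undoing this gave whole reads for 100.0% of values (tolerance 0.05), and 0 of 59070 reads differed between tables. Without restoring the extremes, 73.5% to 75.4% were whole. CPM used the library factors of the authors' tables.

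limma 3.58.1 (R 4.3.3, mean-variance trend, two-sided) was run on log2(CPM + 0.5) with Benjamini-Hochberg adjustment over each table. Ratios were tested by exact permutation. Both were tested on simulated data. In the limma simulation, laid out as OGD against normoxia in wild type, 41.4% of 1.5-fold and 96.6% of 2-fold changes were recovered. False calls were at 8.69% for each size. A missing call thus does not exclude a change of 1.5-fold, and calls close to the threshold are uncertain. The named miRNAs are the 4 strands, the list of 11, miR-210-3p, and the 3 features other than the 4 strands most like miR-132-3p over all libraries and over deviations from group means. The features most like the other 3 strands were named after their values were seen. Members and lists were chosen with earlier results of these data known. Alternatives changed the pseudocount, filter, scaling, depth, model, replicate block and libraries used. Counting error only is covered where reads are given, since molecular identifiers are not mentioned. No batch is named in the labels. 3 reads are 0.249 to 2.55 CPM.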

Additional observations from a re-analysis of the deposited data

Results flagged for a closer look

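Of 32 groups of 5 values tested (the 4 strands and 4 ratios in 4 groups), 4 held a library far from the rest by Dixon's criterion, where chance gives about 1 in 20. Knockout OGD replicate 3 was high for miR-132-3p, at 1657 CPM, against 907 to 1077 CPM in the other 4 libraries. Wild-type OGD replicate 4 was high for miR-132-5p, at 464 CPM, against 282 to 325 CPM. Wild-type normoxic replicate 1 had a high log2 ratio of miR-132-3p to miR-132-5p, at 1.49, and its miR-132-5p level of 287 CPM was the lowest of its group. Wild-type OGD replicate 1 had a high log2 ratio of miR-132-3p to miR-212-3p, at 4.22.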

How the results depend on the processing

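In wild type, miR-212-5p passed under all 12 alternatives other than leaving out libraries, and in the knockout so did miR-132-5p, miR-212-3p and miR-212-5p. Wild-type miR-132-3p lost its call with a pseudocount of 2 CPM (0.38, adjusted p = 0.0534 in limma), median-of-ratios factors (0.10, 0.614), quantile normalization (0.21, 0.272) and thinning to the shallowest library (0.38, 0.121), and turned to -0.19 with centring, with or without the replicate block (adjusted p = 0.176 and 0.309 in limma). In the knockout it turned to -0.14 in both, and passed with the filter on low values (0.37), voom (0.39), the deposited values (0.51 score units) and the replicate block (0.37, adjusted p = 8.1e-04 in limma). Wild-type miR-212-3p lost its call with quantile normalization (0.58), and miR-132-5p with thinning (-0.61). Between genotypes after OGD, miR-132-5p passed only with the deposited values, whose group extremes are limited (-0.50 score units, adjusted p = 0.0107 in limma). Over all features 72 passed there, 23 higher and 49 lower, against 0 in the main fit. The cause of these changes was not tested.

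Values near 0 between genotypes changed sign without a call. For normoxic miR-212-3p they were -0.0179 with centring, with or without the block, -0.0435 with quantile normalization and -0.11 with thinning. For miR-132-3p after OGD the value was 0.0154 with centring, with or without the block, and for its difference in the OGD effect 0.0678 with centring, 0.0505 with quantile normalization and 0.0301 with voom. With thinning the normoxic ratio of miR-212-3p to miR-212-5p was -0.10 and that of miR-132-3p to miR-212-3p 0.0613. The knockout OGD effect on miR-132-5p to miR-212-5p lost its call with thinning (-0.30, adjusted exact p = 0.0988). The activity list's 5 calls in the knockout, among 363 over all features, became 8 with the filter (260), median-of-ratios factors (335), voom (784) and the block (403), and 9 with the deposited values (476); with median-of-ratios factors 5 of the 8 were lower, against 1 of 5.

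The replicate numbers were not shown to pair libraries: deviations of same-numbered libraries correlated at -0.38 to 0.67 over the comparisons. For the OGD effect, 4 of 5 libraries in wild type and 3 of 5 in the knockout lay closest to their own number. There 4 of 5 pairs correlated over 0.1 in each genotype. The genotype comparisons had 2 of 5 such libraries under normoxia and 1 of 5 under OGD, with 3 and 2 pairs over 0.1. Whether these counts exceed chance was not tested. With the replicate block, exact sign flips over 5 pairs cannot give a p below 0.0625 (adjusted 0.111), so no ratio could pass. Its log2 differences were 0.94 and 1.25 for the miR-132 arms in wild type and knockout, 1.86 and 1.55 for the miR-212 arms, -0.87 and -0.67 for miR-132-3p to miR-212-3p, and -0.36 (knockout OGD effect) and -0.46 (genotypes after OGD) for miR-132-5p to miR-212-5p. The block moved calls over all features from 341 to 389 in wild type and from 363 to 403 in the knockout.

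With each library left out, OGD effects ran from 0.25 to 0.43 for miR-132-3p, -0.76 to -0.49 for miR-132-5p, 1.12 to 1.39 for miR-212-3p and -0.74 to -0.51 for miR-212-5p in wild type. In the knockout they ran from 0.23 to 0.46, -0.96 to -0.83, 0.91 to 1.13 and -0.57 to -0.46. The knockout OGD effect on miR-132-5p to miR-212-5p ran from -0.41 to -0.30, and the genotype difference after OGD in miR-132-3p to miR-132-5p from 0.28 to 0.41. Between genotypes, with no call, miR-132-5p ran from -0.29 to -0.0239 in normoxia, miR-212-3p from -0.33 to -0.0562 after OGD, and the difference in the OGD effect from -0.39 to -0.12 for miR-132-5p and -0.35 to -0.0768 for miR-212-3p. Ranges that crossed 0, none called, were -0.10 to 0.15 for miR-212-3p and -0.10 to 0.0200 for miR-212-5p between genotypes in normoxia, -0.21 to 0.0578 for miR-132-3p and -0.0451 to 0.19 for miR-212-5p after OGD, and -0.15 to 0.12 for miR-132-3p and -0.00175 to 0.23 for miR-212-5p for the difference in the OGD effect. Of the ratios between genotypes in normoxia, they were -0.0306 to 0.18 for miR-132-3p to miR-132-5p, -0.0289 to 0.13 for miR-212-3p to miR-212-5p, -0.21 to 0.0022 for miR-132-3p to miR-212-3p and -0.19 to 0.0467 for miR-132-5p to miR-212-5p, whose OGD effect in wild type ran from -0.0910 to 0.15. The fewest reads behind a value were 86, for miR-212-3p.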

Other observations

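The other 3 strands had their own nearest features across the 20 libraries, ranked in the same way as for miR-132-3p and given as a description. miR-212-3p was most like miR-129b-5p (Pearson r 0.981 over all libraries and 0.917 over deviations from the group means). Over all libraries, miR-132-5p was most like miR-129-5p (0.917), followed by miR-434-5p (0.827) and miR-183-5p (0.808). miR-212-5p was most like miR-129-5p (0.886), followed by miR-335-3p (0.885) and miR-410-5p (0.839). Over all libraries, a strand of the miR-129 family thus came first for each of the 4 strands. Over deviations from the group means this was not so for the 5p strands. miR-132-5p was then most like miR-212-3p (0.805), followed by miR-129b-5p (0.790) and miR-129-5p (0.787), and miR-212-5p was most like miR-301b-3p (0.742), followed by miR-129-2-3p (0.737).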
